A study of Mus musculus with 6 samples.

Results

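The genes described here encode the working parts of the lysosome: its proteases, its glycan- and lipid-degrading enzymes and their helper proteins, its membrane proteins, the transcription factors that act on them, and the subunits of the pump that acidifies it. They were 36 listed symbols together with every symbol that begins with Atp6v0 or Atp6v1, which added 22. Of these 58 symbols, 56 had a named probe set among the 19505 genes tested; Ctsd and Glb1 were not analysed here. One of the 22 prefix matches, Atp6v1fnb, is named for its position next to Atp6v1f and is not itself a pump subunit. Each of the 56 genes was read by 1 probe set, the brightest of its symbol.

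RNA came from fibrosarcoma cells of C57BL/6 mouse background, and both groups carried the Q72L form of Rras2, a RAS-family GTPase. Controls carried the lentiviral vector pLKO (replicates 1 to 3), and knockdown cells carried an shRNA against Rras2, sh#89 (replicates 4 to 6). All cells were grown in DMEM with fetal bovine serum. One shRNA was used, the labels do not say whether the cells were 1 clone, and no label states that arrays in a group stem from different cultures. The spread behind every p-value is therefore that of these samples alone and could be technical.

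The lysosome is a membrane-bound, acidic compartment in which proteins, glycans and lipids taken up or delivered by autophagy are broken down. Most of its enzymes are made in the endoplasmic reticulum, tagged with mannose 6-phosphate in the Golgi and carried to the lysosome by receptors. Acidity comes from the V-ATPase, in which the cytosolic V1 sector hydrolyses ATP and the membrane V0 sector moves protons. Many lysosomal genes carry the palindromic E-box CACGTG near their start, which the MiT/TFE factors TFEB and TFE3 bind. Fibroblasts and their tumors also secrete cathepsins, which can cut matrix proteins.

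Rras2 was 10.67, 10.75 and 10.82 on the log2 scale in the controls and 9.09, 9.69 and 9.21 in the knockdown. That left 37.6% of the control signal (log2 difference -1.41 ± 0.14 SE; limma adjusted p = 0.00163), and an exact two-sided permutation over the arrays had p = 0.1, the lowest value possible here. Fibroblast-lineage transcripts such as Vim (13.84 in the controls), Fn1 (13.21) and Col3a1 (11.07) were bright, whereas Fap, Lum, Thy1, Dcn and Col1a2 were in both groups under 7.92, a level that 95% of negative-control readings do not exceed and that is called the negative-control percentile below. Of the 11 measured fibroblast markers 3 rose and 0 fell, beside 2.99% and 2.22% of all genes. The rises were in Dcn (1.70-fold), Col3a1 (1.61-fold) and Pdgfrb (1.30-fold), with limma adjusted p-values of 0.0231, 0.0313 and 0.0486. Macrophages and osteoclasts are rich in lysosomes, and of their 21 measured markers 2, Nfatc1 and Itgb3, exceeded that level in either group. Their defining markers Ptprc, Csf1r, Adgre1, Aif1 and Tyrobp were below it on average in both groups. Of the 21, 0 passed limma's threshold and 4 had an unadjusted p under 0.05, beside 5.21% and 19.1% of all genes. The summed linear signal of those 21 markers was 1629 to 1726 in the controls and 1556 to 1775 in the knockdown. Skeletal muscle markers differed: 11 of 20 rose and 0 fell, beside the same 2.99% and 2.22% of all genes. Their summed linear signal was 2459 to 2701 in the controls and 6809 to 10990 in the knockdown. The part of the fibroblast and muscle transcripts in the differences given next was not tested. In RNA from whole cultures, fewer cells expressing a gene and less RNA per cell cannot be told apart.

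Among the 34 measured lysosomal genes outside the pump, 4 rose, 1 fell and 29 did not pass, and among the 22 pump symbols none passed in either direction. The rises were in Ctsc, a protease, in Npc2, a cholesterol carrier, and in Gm2a and Hexa, which act together on a ganglioside. The fall was in Ctsh, another protease. A gene passed when its Benjamini-Hochberg adjusted p from limma, computed over all 19505 genes, was under 0.05, and 5.21% of all genes did so (2.99% higher and 2.22% lower). The share was 14.7% among the 34 lysosomal genes. These genes and the further lists below were chosen with earlier results of these data known, so no list was tested as a set. Among the 8131 genes whose mean lay above the negative-control percentile, 8.55% passed, against 16.1% of the 31 lysosomal genes that bright. The median log2 difference of the 34 genes was 0.11, beside -0.01 over all genes, and 24 of the 34 were above 0, beside 46.8% of all genes. Groups did not overlap for 13 of the 34 (38.2%), against 25.5% of all genes. Of the 31 bright lysosomal genes, 41.9% had separate groups, near the 39.6% of all bright genes.

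**Figure D1:**
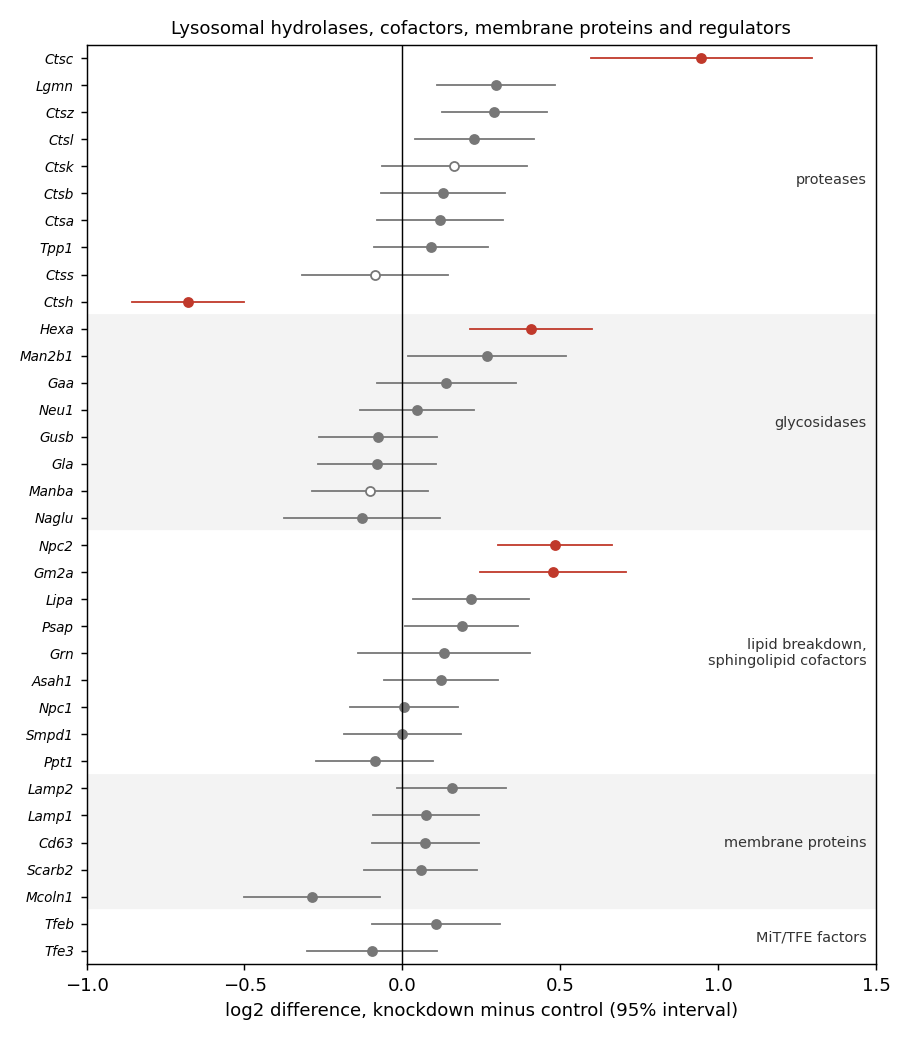
Log2 difference, knockdown minus control, of each of the 34 measured lysosomal genes outside the pump (points) with limma's 95% interval (lines), grouped by role and ordered within each role. Red marks the 5 genes past the adjusted threshold, and open points mark Ctsk, Ctss and Manba, whose mean lay below the negative-control percentile; Ctsc lies farthest to the right and Ctsh farthest to the left.

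The proteases showed the widest range, from -0.68 to 0.95. Ctsc encodes cathepsin C, or dipeptidyl peptidase I, which removes dipeptides from protein ends and activates serine proteases of immune cells. Its log2 signal was 8.12, 8.04 and 7.83 in controls 1 to 3 and 9.20, 8.58 and 9.04 in knockdown replicates 4 to 6. All knockdown arrays lay above all controls, with replicate 5 the lowest of them. The rise was 1.93-fold (95% interval 1.51 to 2.46; limma adjusted p = 0.0109). The control mean of 7.99 ± 0.15 (SD, n = 3) stood just above the negative-control percentile, where signals are compressed and a fold can be understated. Without knockdown replicate 6 the call was lost (limma adjusted p = 0.0516).

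Ctsh, which encodes cathepsin H, an aminopeptidase of the papain family, went the other way. It measured 9.85, 9.91 and 9.95 in the controls and 9.23, 9.29 and 9.16 in the knockdown. Both groups were tight, with SDs of 0.05 and 0.06, and did not overlap. It fell by 0.68 ± 0.08 (SE) on the log2 scale, to 0.625 of the control level (95% interval 0.553 to 0.706; limma adjusted p = 0.00242). Of the 5 calls it alone held whichever array was left out, with limma adjusted p-values between 0.00372 and 0.0168.

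A further 3 proteases had separate groups without passing. Groups were separate for 50% of the 10 proteases, beside 25.5% of all genes and 39.6% of the bright ones. Ctsz, a carboxypeptidase, was 10.24, 10.28 and 10.27 in the controls and 10.59, 10.51 and 10.56 in the knockdown (difference 0.29 ± 0.07 SE; limma adjusted p = 0.0593). Lgmn, the asparaginyl endopeptidase legumain that processes other cathepsins, was 10.65, 10.62 and 10.55 against 11.01, 10.84 and 10.86 (0.30 ± 0.08; limma adjusted p = 0.0795). For Ctsl, an endopeptidase that can cut matrix proteins, the values were 11.38, 11.28 and 11.21 against 11.52, 11.44 and 11.59 (0.23 ± 0.08; limma adjusted p = 0.173). In each, every knockdown array was above every control, by less than in Ctsc. The endopeptidase gene Ctsb (0.13), the carboxypeptidase gene Ctsa (0.12), whose product also protects other lysosomal enzymes, and Tpp1 (0.09), a tripeptidyl peptidase, had overlapping groups. The osteoclast collagenase gene Ctsk (4.81 and 4.98 as group means) and the macrophage cathepsin gene Ctss (5.68 and 5.59) were near the negative-control median of 5.02 in both groups.

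**Figure D2:**
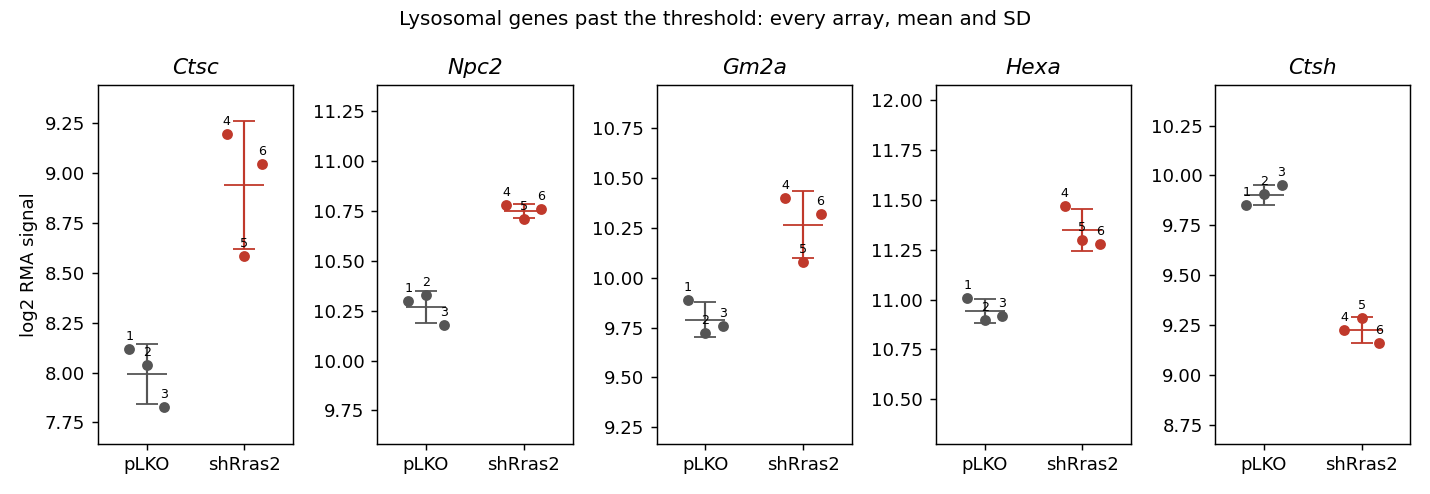
Log2 RMA signal of the 5 lysosomal genes past the threshold on each of the 6 arrays; numbers are replicate numbers, crossbars are group means and whiskers SDs (n = 3), and every panel spans the same log2 range. Knockdown arrays stand above the controls for Ctsc, Npc2, Gm2a and Hexa and below them for Ctsh, and replicate 5 is the lowest knockdown array for Ctsc, Npc2 and Gm2a.

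Hexa and Gm2a belong to a single degradation step. Hexa encodes the alpha subunit of beta-hexosaminidase A, and Gm2a encodes the activator protein that lifts GM2 ganglioside out of the membrane and presents it to that enzyme; loss of either causes GM2 storage. Hexa was 11.01, 10.90 and 10.92 in the controls and 11.47, 11.30 and 11.28 in the knockdown, a 1.33-fold rise (95% interval 1.16 to 1.52; limma adjusted p = 0.0294). Gm2a was 9.89, 9.72 and 9.76 against 10.40, 10.08 and 10.32, a 1.39-fold rise (1.19 to 1.63; limma adjusted p = 0.0317). Groups did not overlap for either gene, and replicate 4 was the highest knockdown array for both. Each call held when knockdown replicate 5 was left out and was lost when any other array was (limma adjusted p reaching 0.103 for Hexa and 0.119 for Gm2a).

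The other glycosidases stayed close to their control levels. Man2b1, lysosomal alpha-mannosidase, differed by 0.27 ± 0.11 with overlapping groups (limma adjusted p = 0.229) and passed in the fit that left out knockdown replicate 5. The remaining 6, namely Gaa, which degrades glycogen, the alpha-galactosidase gene Gla, the beta-glucuronidase gene Gusb, the beta-mannosidase gene Manba, the heparan sulfate enzyme gene Naglu and the sialidase gene Neu1, lay between -0.13 and 0.14. For 7 of the 8 glycosidases the 95% interval stayed within a 1.5-fold change in either direction, beside 90.4% of all genes. The exception was Hexa.

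Among the genes of lipid breakdown and sphingolipid cofactors, Npc2 rose with Gm2a. Npc2 encodes the soluble protein that binds cholesterol in the lysosome lumen and hands it to the membrane transporter NPC1. It was 10.30, 10.33 and 10.18 in the controls and 10.78, 10.71 and 10.76 in the knockdown, with a knockdown SD of 0.04. The rise was 1.40-fold (95% interval 1.23 to 1.58; limma adjusted p = 0.011) and was lost without knockdown replicate 4 (limma adjusted p = 0.051). Its partner Npc1 differed by 0.00 ± 0.07 (95% interval -0.17 to 0.17), with overlapping groups.

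Lipa, the acid lipase that frees cholesterol from its esters, was 9.96, 9.83 and 9.88 in the controls and 10.10, 10.03 and 10.19 in the knockdown (0.22 ± 0.08; limma adjusted p = 0.181). Psap, the precursor of the saposins that activate sphingolipid hydrolases, was 12.29, 12.27 and 12.31 against 12.53, 12.38 and 12.53 (0.19 ± 0.08; limma adjusted p = 0.238). In both, the groups were separate and the difference did not pass. The ceramidase gene Asah1 (0.12) also had separate groups, with a limma unadjusted p of 0.158. The progranulin gene Grn (0.13), the sphingomyelinase gene Smpd1 (-0.00) and the thioesterase gene Ppt1 (-0.09) overlapped. Groups were separate for 55.6% of the 9 genes with this role, beside 25.5% of all genes and 39.6% of the bright ones.

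None of the 5 membrane proteins passed limma's threshold, and 1, Mcoln1, had an unadjusted p under 0.05, as had 19.1% of all genes. Mcoln1, the calcium-releasing channel TRPML1, was 10.56, 10.28 and 10.51 in the controls and 10.18, 10.23 and 10.10 in the knockdown. The groups were separate, with the knockdown lower by a narrow margin (-0.29 ± 0.09; limma adjusted p = 0.138). Lamp2 (0.16), Lamp1 (0.08), Cd63 (0.07) and Scarb2 (0.06), which encode abundant proteins of the lysosomal or late endosomal membrane, all had 95% intervals within a 1.5-fold change. The transcription factor genes Tfeb (0.11 ± 0.09) and Tfe3 (-0.10 ± 0.09) had overlapping groups, and the intervals of both also excluded a 1.5-fold change. Such an interval was found for 90.4% of all genes.

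No measured pump subunit passed limma's threshold, and the V0 subunit gene Atp6v0c was not among the 22 symbols. Of the 22 symbols, 5 had an unadjusted p under 0.05, 3 higher and 2 lower, beside 19.1% of all genes (9.11% higher and 10% lower), and the groups did not overlap for 4, beside 25.5%. The median difference was 0.05. It was 0.017 for the 14 symbols with a mean above the negative-control percentile and 0.175 for the 8 below it. Groups did not overlap for 21.4% of those 14, beside 39.6% of all genes that bright. For 21 of the 22 the 95% interval stayed within 1.5-fold, as for 90.4% of all genes, the exception being Atp6v1c2. The differences nearest the threshold were both downward and both in the V1 sector. Atp6v1h, a regulatory subunit that couples V1 to V0, was 9.51, 9.38 and 9.43 in the controls and 9.10, 9.22 and 9.06 in the knockdown (-0.31 ± 0.08; limma adjusted p = 0.0675). Atp6v1c1, a subunit of the V1 stalk, was 9.79, 9.82 and 9.85 against 9.52, 9.58 and 9.55 (-0.27 ± 0.07; limma adjusted p = 0.0742). All knockdown arrays were below all controls for both.

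The largest difference upward was in Atp6v1c2 (0.41 ± 0.14, limma adjusted p = 0.151). Its groups overlapped, and both group means lay below the negative-control percentile. With separate groups, Atp6v1g1, a stalk subunit, was 9.74, 9.72 and 9.72 in the controls and 9.90, 10.12 and 9.86 in the knockdown (0.23 ± 0.09, limma adjusted p = 0.197). Atp6v0d2, a form of subunit d known from osteoclasts, was 5.77, 5.55 and 5.54 against 5.99, 5.81 and 5.78 (0.24 ± 0.10; limma adjusted p = 0.22), all below the negative-control percentile. The groups were separate for both genes, by a margin of hundredths on the log2 scale for Atp6v0d2. The catalytic subunit gene Atp6v1a differed by 0.03 ± 0.08 and its partner Atp6v1b2 by -0.07 ± 0.08. Among the forms of the V0 subunit a, Atp6v0a1 differed by 0.10, Atp6v0a2 by -0.09 and Atp6v0a4, a form known from kidney, by -0.10, the last from a level below the percentile. In all, 14 of the 22 symbols had a mean above that percentile. The 8 below it, which besides Atp6v0a4, Atp6v0d2 and Atp6v1c2 were Atp6v0e2, Atp6v1b1, Atp6v1e2, Atp6v1g3 and Atp6v1fnb, include forms known from specialised cells. A change in them could be missed.

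**Figure D3:**
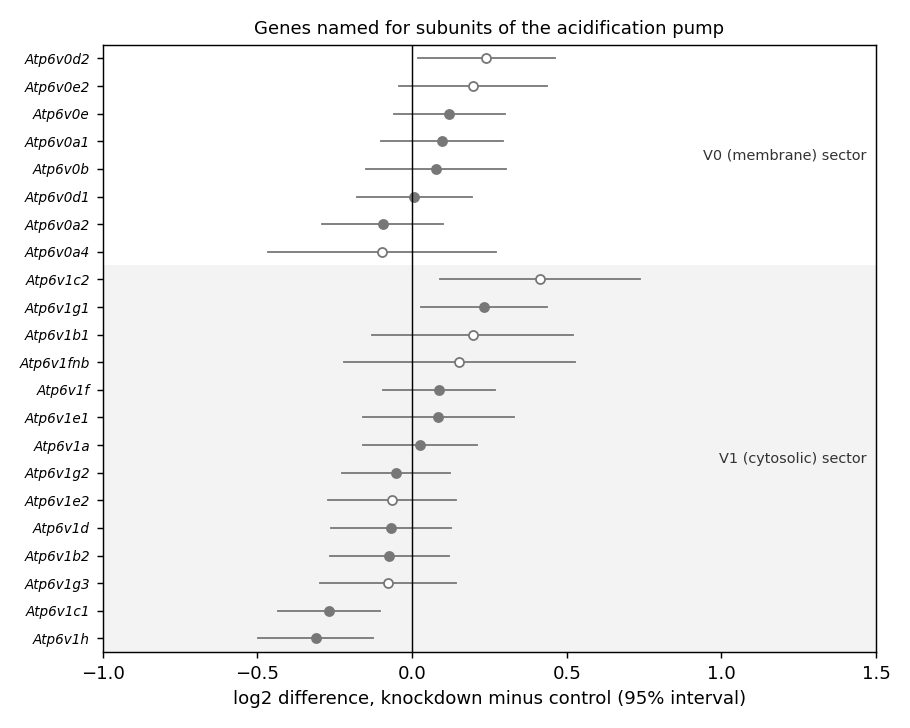
Log2 difference, knockdown minus control, with limma's 95% interval for the 22 symbols beginning with Atp6v0 or Atp6v1, by sector of the pump. Filled points have a mean above the negative-control percentile and open points do not; no gene passed the adjusted threshold, and Atp6v1h and Atp6v1c1 lie lowest.

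Arrays of one group were not alike in these genes. The median deviation of the 34 lysosomal genes from their 6-array means was 0.07 on knockdown replicates 4 and 6 but -0.00 on replicate 5, which was level with control replicate 1 (-0.00). Controls 2 and 3 were at -0.11 and -0.07. The same array, replicate 5, kept the most Rras2 signal of the 3 knockdown arrays and had the smallest median deviation of the muscle markers (0.21, against 0.54 and 0.58). Whether these differences among the arrays go together was not tested. Without replicate 5, 6 lysosomal genes passed, with Man2b1 added at a limma adjusted p that rounds to 0.05. The count was 3 without control replicate 1, 2 or 3 and 2 without knockdown replicate 4 or 6. The number passing among all genes moved the same way. It was 1017 with all arrays, 1136 without replicate 5 and 589 or fewer without any other array. Whether the lysosomal count changed more than that of all genes was not tested. For the pump symbols the medians lay between -0.04 and 0.04 on every array, and 0 passed in each of those 6 fits.

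**Figure D4:**
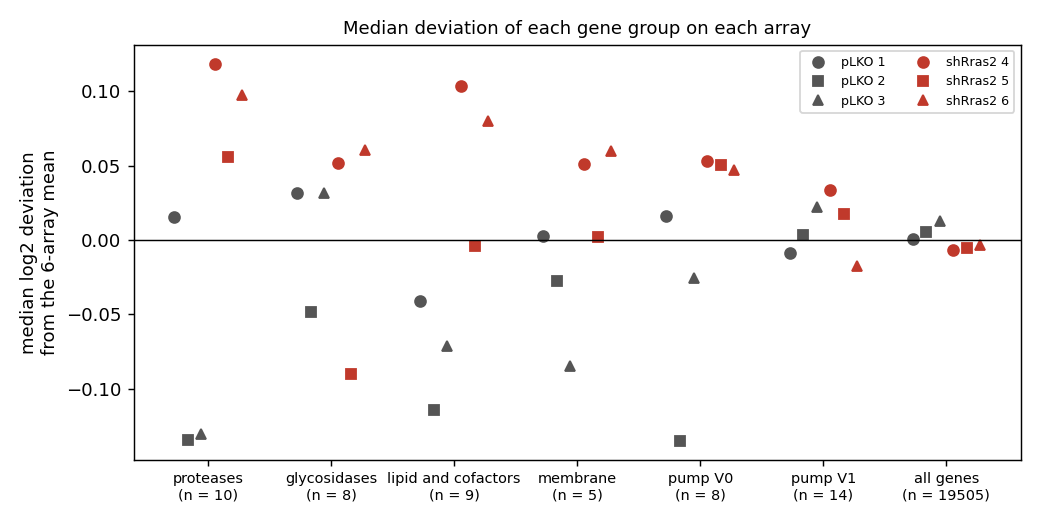
Median log2 deviation from the 6-array mean on each array, for each role with 5 or more genes and for all genes; grey symbols are the 3 pLKO arrays and red symbols the 3 shRras2 arrays. For the proteases, the lipid group and the V0 subunits every knockdown array stands above every control, whereas glycosidases, membrane proteins and V1 subunits mix the groups.

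CACGTG was searched for in the RefSeq promoters (GRCm38.p6), 250 bases before to 50 after each annotated start. The word is its own reverse complement, so one search covers both strands. Of the 56 genes, 46 had at least 1 promoter in the table, and 12 of them (26.1%) held the word, beside 9.26% of the 15691 tested genes with a promoter there and 7.15% of all 32851 promoters. For TCACGTG, read on either strand and always overlapping a CACGTG, the counts were 11 of 46 (23.9%), 5.21% and 3.77%. None of the 4 genes that rose held CACGTG in this window, and Ctsh had no entry. None of the 12 genes that held it passed limma's threshold either, though Ctsl, Lgmn and Mcoln1 passed under eBayes with trend and robust settings and Lgmn without the dimmest genes. At the 5.21% of all genes called, sets this small hold few calls or none. Those 12 were Ctsa, Ctsl, Lgmn, Gaa, Gla, Naglu, Lamp1, Mcoln1, Atp6v0b, Atp6v0d1, Atp6v0e and Atp6v1a, with a median difference of 0.08 and a range from -0.29 to 0.30. The 34 without the word had a median of 0.09. A match is a string of letters, and no match says only that they are not in this window.

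The 120 bases before the start are shown for 3 of the genes that rose. Ctsc, which also rose, is not shown and likewise held no CACGTG there. Also shown are the 3 genes with 2 or more CACGTG words in that stretch, which were chosen after the search. Sequences run 5′ to 3′ on the gene's strand, and capitals mark CACGTG. The first 3 lines hold none, and Lamp1 holds 4.
Npc2, chr12:84773113-84773232, minus strand: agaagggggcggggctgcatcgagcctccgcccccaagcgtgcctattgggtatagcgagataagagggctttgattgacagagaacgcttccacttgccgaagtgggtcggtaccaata
Hexa, chr9:59539420-59539539, plus strand: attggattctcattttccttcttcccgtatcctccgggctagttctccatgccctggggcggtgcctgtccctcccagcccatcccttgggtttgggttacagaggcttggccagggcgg
Gm2a, chr11:55097865-55097984, plus strand: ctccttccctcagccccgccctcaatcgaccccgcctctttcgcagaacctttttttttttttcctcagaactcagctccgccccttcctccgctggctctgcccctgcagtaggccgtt
Lamp1, chr8:13159041-13159160, plus strand: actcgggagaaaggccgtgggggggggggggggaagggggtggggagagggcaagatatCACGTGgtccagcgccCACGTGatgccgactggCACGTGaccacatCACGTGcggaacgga
Mcoln1, chr8:3500399-3500518, plus strand: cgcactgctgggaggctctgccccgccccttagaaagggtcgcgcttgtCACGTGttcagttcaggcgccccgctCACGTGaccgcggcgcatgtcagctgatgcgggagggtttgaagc
Atp6v0b, chr4:117887330-117887449, minus strand: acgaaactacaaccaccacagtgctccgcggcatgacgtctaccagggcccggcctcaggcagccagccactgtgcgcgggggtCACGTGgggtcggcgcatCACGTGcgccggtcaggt
Lamp1 carries the word 61, 45, 28 and 15 bases before its start and differed by 0.08 ± 0.07. Atp6v0b, the proteolipid-type V0 subunit, carries it 36 and 18 bases before and differed by 0.08 ± 0.10. Mcoln1, with the word 71 and 45 bases before, is the gene given above as lower without passing.

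Further lists cover the rest of the pathway. Of 32 other measured lysosomal hydrolases, 4 rose and 1 fell (median difference 0.03), a share of 15.6% beside 5.21% of all genes and 8.55% of the bright ones. The rises were in the peptidase genes Cpq (0.53 ± 0.10; limma adjusted p = 0.0163) and Dpp7 (0.53 ± 0.08; limma adjusted p = 0.00964), the mannosidase gene Man2b2 (0.51) and the fucosidase gene Fuca1 (0.44). Ids, the sulfatase that starts dermatan and heparan sulfate breakdown, fell by 0.48 ± 0.08 (limma adjusted p = 0.0104). When each array was left out in turn, Dpp7 and Ids held in all 6 fits, Man2b2 in 4, Cpq in 2 and Fuca1 in 1. Both group means of Man2b2 lay below the negative-control percentile. Of 28 other lysosomal membrane proteins 0 passed limma's threshold and 2 had an unadjusted p under 0.05; here and in the lists that follow, such counts stand beside 19.1% of all genes.

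Genes that deliver enzymes to the lysosome had 1 rise and 2 falls among 29 (median -0.02), a share of 10.3% beside the same backgrounds. Gnptab encodes the catalytic part of the enzyme that starts the mannose 6-phosphate tag. It was 9.95, 9.95 and 9.94 in the controls and 9.08, 9.29 and 9.31 in the knockdown, a fall to 0.608 of the control level (95% interval 0.53 to 0.697; limma adjusted p = 0.00318). Sort1, the sorting receptor sortilin, was 9.44, 9.45 and 9.58 against 10.16, 10.11 and 10.01, a 1.52-fold rise (1.34 to 1.74; limma adjusted p = 0.00525). Cln8, which helps enzymes leave the endoplasmic reticulum, fell by 0.62 ± 0.10 (limma adjusted p = 0.00878). Groups were separate for all 3 genes, and each held whichever array was left out. The mannose 6-phosphate receptor genes Igf2r and M6pr differed by -0.07 ± 0.07 and 0.12 ± 0.08, and Gnptg, the partner subunit of Gnptab, by 0.15 ± 0.10; none of these 3 passed.

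Of 15 accessory pump genes 0 passed limma's threshold, with 2 at an unadjusted p under 0.05; Tcirg1, which encodes a further form of subunit a, differed by 0.06 ± 0.12 and the accessory subunit gene Atp6ap1 by -0.03 ± 0.07. Among 30 genes of mTORC1 and its lysosomal anchors, the kinase complex that keeps TFEB in the cytosol, Nprl3, a part of the inhibitory complex GATOR1, fell by 0.33 (limma adjusted p = 0.0425); leaving out any of the 6 arrays ended that call, with adjusted p-values reaching 0.151. Of 9 genes on a list of the other MiT/TFE factors, calcineurin subunits and the factors Zkscan3, Foxo1 and Foxo3, 0 passed limma's threshold, with 4 at an unadjusted p under 0.05, and both other MiT/TFE genes, Mitf and Tfec, had group means below the negative-control percentile. Of 42 autophagy genes 2 rose and 0 fell (median 0.09), a share of 4.76% that is not above that of all genes. These were Atg12, a ubiquitin-like conjugation factor (0.50 ± 0.08; limma adjusted p = 0.0104), and Rb1cc1, the scaffold of the initiating kinase complex (0.39 ± 0.09; limma adjusted p = 0.0439), which held in 5 and 0 of the 6 fits that leave out an array. Of 12 cathepsin inhibitors 0 passed limma's threshold and 2 had an unadjusted p under 0.05, Cst3 (0.26 ± 0.09; limma adjusted p = 0.145) and Cstb (-0.25 ± 0.08; limma adjusted p = 0.129), in opposite directions.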

How the data were processed

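RNA was read on 6 Affymetrix arrays, 3 for each group. Per the submitters' processing notes, the authors used RMA and R 3.6.3, and what they deposited is a log2 value for every probe set. RMA subtracts background, makes the arrays' distributions equal by quantiles and combines the probes of a set. Filters and package version: not given in the sources used here. Low signals are compressed, so dim genes can understate a change, and the number of arrays limits the precision (median SE 0.096 on the log2 scale). Probe sets were named by the platform annotation: 19572 of the 22206 transcript probe sets had 1 symbol, 0 several and 2634 none. The brightest probe set per symbol was kept. Background level was taken from 5222 negative-control probe sets.

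Groups were compared with limma 3.58.1 in R 4.3.3 (lmFit, eBayes, no covariates, two-sided), with Benjamini-Hochberg adjustment over 19505 genes; intervals are limma's. Permutation used scipy 1.17.1. The fit was also run on simulated arrays with independent noise and known changes, which does not cover shared cultures or batches. Scan dates were not at hand, and a batch running along the replicate numbers and the group cannot be told apart. The members and lists were chosen with earlier results of these data known, so no list was tested as a set. All members may be named; values on every array are given for those past the threshold or with an unadjusted p under 0.05 and separate groups, and for other lists genes past the threshold, up to 4 in each direction, with a few others named for their role. Alternatives were a second quantile normalization, median centring, cyclic loess, leaving out the dimmest 30% of genes, averaging probe sets, eBayes with trend and robust settings, array weights, and leaving out each array.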

Additional observations from a re-analysis of the deposited data

How the results depend on the processing

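No paired analysis was possible because the groups share no replicate number. With eBayes under trend and robust settings, 11 lysosomal genes passed in place of 5 (9 higher and 2 lower, adding Ctsl, Ctsz, Lgmn, Psap, Lamp2 and Mcoln1), among 1908 genes in all in place of 1017. Leaving out 1 array gave 2 to 6, with 1136 of all genes passing without knockdown replicate 5 and 589 or fewer without any other array. For the pump symbols, 1 passed with array weights (Atp6v1h, lower) and 2 with the trend and robust settings or without the dimmest genes (Atp6v1c1 and Atp6v1h, both lower), the latter with fewer genes tested; otherwise the cause was not tested. Their median of 0.05 was 0.021 with array weights, 0.011 with median centring, and 0.0019 to 0.083 without 1 array. The median of the 34 lysosomal genes lay between 0.07 and 0.14 under every setting run. None of the 15 members whose values are given array by array changed sign under any setting. Of the 56 members 9 did so under some setting, none of them past the threshold; with all arrays kept these were Npc1, Smpd1, Atp6v0d1 and Atp6v1a, whose differences were at most 0.027 in size. Median centring made 506 of all genes higher and 567 lower, in place of 584 and 433, and kept the same 5 lysosomal calls. Array weights and cyclic loess added Ctsz, and leaving out the dimmest genes added Ctsz and Lgmn (7 calls). Rras2 passed in every fit.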
